A study of Mus musculus with 12 samples.

Results

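The 8 genes described here write, erase or cooperate with methylation marks on DNA and histones: Dnmt1, Dnmt3a, Dnmt3b and Uhrf1 (writers), Tet1, Tet2 and Tet3 (erasers) and Ezh2 (a histone methyltransferase). They were chosen by name, whatever their level, from the 17523 genes of the deposited table, with earlier results of these data known. All 8 were among the 15587 genes with enough reads to be tested. RNA was sequenced from CD4+ T cells that had been sorted out of spleens from Gr/fr mice on the C57BL/6 background, aged 2 to 3 months in the study's sorting protocol. These mice carry a transgenic Csf2 allele that makes GM-CSF together with iCre recombinase and blue fluorescent protein, and a Rosa26 allele in which iCre switches on yellow fluorescent protein (YFP) for good. Naïve cells (CD62L+CD44-) and effector memory cells (TEM, CD62L-CD44hi) were each separated into a YFP- and a YFP+ fraction, which gave 4 groups of 3 libraries, with both alleles present in every group. YFP therefore marks past as well as present Csf2 promoter activity, and a YFP+ cell need not make GM-CSF at the time of the sort. All values are normalized counts, that is, reads on a gene divided by the size factor of the library.

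DNA methylation in mammals sits mainly on cytosines followed by guanine. After DNA replication the new strand is unmethylated, Uhrf1 binds such half-marked sites, and Dnmt1 is brought there to copy the mark. Dnmt3a and Dnmt3b place marks on sites that had none, and the Tet enzymes oxidise methylated cytosine as the first step of its removal. Ezh2 is the main catalytic subunit of Polycomb repressive complex 2 (PRC2), which methylates lysine 27 of histone H3. In CD4+ T cells these enzymes are known for their part in keeping cytokine genes and Foxp3 silent or open as cells differentiate.

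The 12 libraries held between 40974124 and 57822269 reads on genes. The sort was visible in its own markers: Cd44, the adhesion receptor that defines memory cells, had 2334 to 3372 normalized counts in the 6 naïve libraries and 21778 to 29383 in the 6 TEM libraries, and all 8 CD4 T cell genes examined were expressed at similar summed levels in the 4 groups (190284 to 275233). RNA of other cell types differed between the TEM groups. The summed level of 8 conventional dendritic cell genes ranged from 9495 to 19658 in YFP- TEM, from 515 to 1161 in YFP+ TEM and from 78.3 to 356 in naïve libraries. The plasmacytoid dendritic cell gene Siglech had 1412 to 3367 normalized counts in YFP- TEM, 26.9 to 118 in YFP+ TEM and at most 16.7 in naïve libraries, 4 of which were at 0. One naïve library, YFP+ replicate 2, had the highest naïve sums of macrophage and neutrophil genes (4289) and of erythroid genes (3702).

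On a scale that allows genes to be compared (normalized counts per kb of exon), Dnmt1 had the highest mean of the 8 genes in each of the 4 groups, with 1233 ± 174 in YFP- naïve and 1232 ± 115 in YFP- TEM cells (mean ± SD, n = 3 libraries). Tet3 followed in naïve cells, with 1079 ± 168 in the YFP- group. In YFP- TEM cells the place after Dnmt1 was taken by Uhrf1, at 813 ± 148, which had been the lowest of the 8 in YFP- naïve cells at 54.5 ± 9.16. Tet1 was lowest in both TEM groups, at 24.9 ± 3.68 in YFP- and 33.5 ± 9.37 in YFP+ cells.

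**Figure D1:**
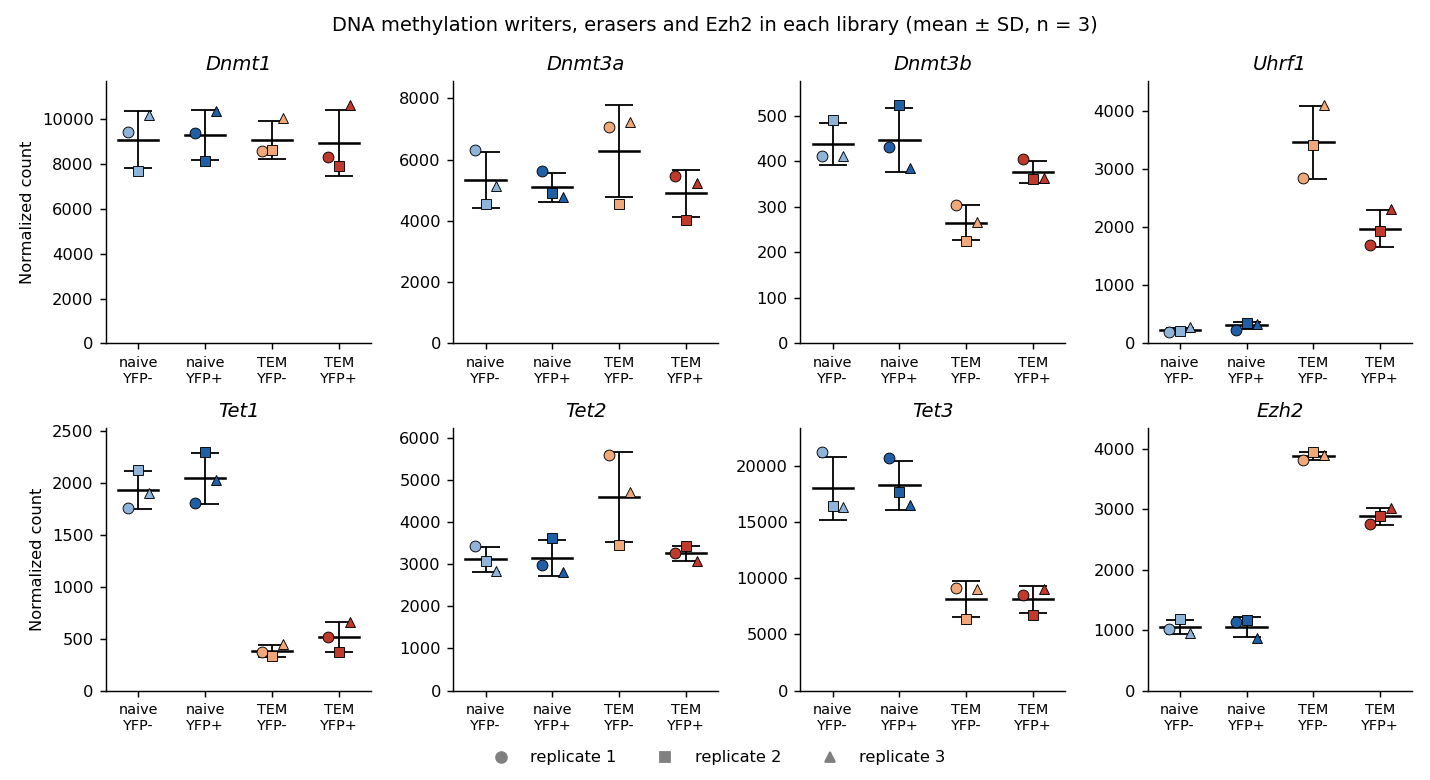
Normalized count of each gene (linear y axes starting at 0, a scale per gene) in the 12 libraries. Points are libraries, shaped by replicate number and coloured by group, lines are means and whiskers SDs. Uhrf1 and Ezh2 lay higher and Tet1 and Tet3 lower in all 6 TEM libraries than in any naïve library, while Dnmt1 covered the same range in all 4 groups.

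TEM and naïve cells were compared first, within each YFP fraction, to see which parts of the machinery differ between resting and antigen-experienced cells. Uhrf1 and Ezh2 were higher and Tet1 and Tet3 lower in TEM cells of both fractions. In the YFP- fraction Tet2 was also higher and Dnmt3b lower. Dnmt1 and Dnmt3a did not pass the test in either fraction. A gene was called at an adjusted p of 0.05 or less in limma, after Benjamini-Hochberg adjustment over all 15587 genes. By this rule 6 of the 8 genes were called in the YFP- fraction (3 higher, 3 lower), where 49.8% of all tested genes were called (29.9% higher, 19.9% lower). In the YFP+ fraction 4 of the 8 were called (2 higher, 2 lower), beside 41.4% of all tested genes (24.7% higher, 16.7% lower). The 3 TEM libraries lay wholly outside the range of the 3 naïve libraries for the same 6 genes in YFP- cells, against 59% of all tested genes, and for the same 4 genes in YFP+ cells, against 48.7%. With backgrounds of that size the counts do not set the 8 genes apart from the transcriptome. Their median log2 fold change was 0.11 in YFP- and -0.06 in YFP+ cells, beside 0.05 and 0.03 for all tested genes. Because these are bulk samples, a larger share of cells that express a gene and more RNA per cell cannot be told apart. Markers of other cells moved in the same comparisons: 8 of 8 conventional and 11 of 12 plasmacytoid dendritic cell genes were higher in YFP- TEM cells, and 6 of each list were higher in YFP+ TEM cells, where 2 plasmacytoid genes were lower. All 9 regulatory and all 7 follicular helper T cell genes were higher in TEM cells of both fractions. Of 8 NK and NKT cell genes 6 were higher in YFP- and 8 in YFP+ TEM cells. Of 10 B cell genes 2 were higher and 6 lower in YFP- TEM cells. Of 2 CD8 T cell genes 1 was higher and 1 lower in YFP- TEM cells, and 1 was lower in YFP+ TEM cells. Of 8 macrophage and neutrophil genes tested 4 were higher in YFP- TEM cells, and 1 was higher and 1 lower in YFP+ TEM cells. Their part in the members' differences was not tested.

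Uhrf1, the reader of half-methylated DNA, moved furthest. It had 204, 215 and 276 normalized counts in the 3 YFP- naïve libraries and 2851, 3425 and 4109 in the YFP- TEM libraries. In YFP+ cells it had 239, 356 and 342 in naïve and 1692, 1928 and 2316 in TEM libraries. The naïve and TEM ranges were far apart in both fractions. The increase was 14.8-fold in YFP- cells (log2 fold change 3.89, SE 0.19, adjusted p 1.29e-08, limma) and 6.36-fold in YFP+ cells (2.67, SE 0.19, adjusted p 3.61e-07). The gene (Entrez 18140) lies on chromosome 17 from 56303337 to 56323486, plus strand of GRCm38.p6, with no other RefSeq gene across it.

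Dnmt1, the enzyme that Uhrf1 brings to DNA, did not follow it. Dnmt1 had 9415, 7679 and 10186 normalized counts in YFP- naïve libraries and 8583, 8610 and 10066 in YFP- TEM libraries. In YFP+ cells the values were 9380, 8135 and 10359.6 in naïve and 8309.5, 7908 and 10638 in TEM libraries. All 4 ranges overlapped. The log2 fold change of TEM over naïve was 0.0049 in YFP- cells (95% interval -0.30 to 0.31) and -0.06 in YFP+ cells (-0.36 to 0.24), so that neither interval held a change of 1 log2 unit. Dnmt1 (Entrez 13433; chromosome 9, 20907206 to 20959888, minus strand) overlaps the microRNA gene Mir7081.

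The de novo methyltransferases were quieter. Dnmt3a had 6320, 4534 and 5124 normalized counts in YFP- naïve, 5639, 4895 and 4767 in YFP+ naïve, 7055, 4549 and 7241 in YFP- TEM and 5459, 4028 and 5226 in YFP+ TEM libraries. These ranges all overlapped. Its log2 fold change was 0.22 in YFP- cells (-0.17 to 0.62) and -0.07 in YFP+ cells (-0.46 to 0.33). YFP- TEM replicate 2 stood below the other 2 libraries of its group. Without it the first value became 0.44 (adjusted p 0.0405), and without YFP- TEM replicate 3 it became 0.10 (0.710). Dnmt3a (Entrez 13435; chromosome 12, 3801559 to 3914443, plus strand) overlaps Dnmt3aos and Gm31623. Without a stated strand setting its reads cannot be separated from reads of its antisense partner.

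Dnmt3b was the least abundant of the 3 methyltransferases. It had 412, 491 and 412 normalized counts in YFP- naïve libraries and 304, 226 and 267 in YFP- TEM libraries. YFP+ naïve libraries held 432, 524 and 386 and YFP+ TEM libraries 405, 361 and 363. The YFP- TEM libraries were below every other library of the study, whereas the YFP+ TEM and naïve libraries overlapped. Dnmt3b fell by 0.73 on the log2 scale in YFP- cells (SE 0.16, adjusted p 0.00221, limma). In YFP+ cells the value was -0.24 (95% interval -0.58 to 0.11, adjusted p 0.259). The call depended on scaling: after quantile normalization, which shifted the median of all genes to -0.20 in YFP- and -0.14 in YFP+ cells, Dnmt3b was also called in YFP+ cells (-0.59, adjusted p 0.0105). It lies on chromosome 2 from 153649411 to 153687730, plus strand (Entrez 13436).

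The 3 Tet genes went different ways. Tet1 had 1761, 2125 and 1903 normalized counts in YFP- naïve and 372, 334 and 446 in YFP- TEM libraries. It had 1808, 2297 and 2029.5 in YFP+ naïve and 519, 373 and 663 in YFP+ TEM libraries. No TEM library came near a naïve one. Tet1 was 5.03-fold lower in YFP- TEM cells (log2 fold change -2.33, SE 0.19, adjusted p 6.88e-07, limma) and 4.03-fold lower in YFP+ TEM cells (-2.01, SE 0.19, adjusted p 3.34e-06). It lies on chromosome 10 from 62804570.0 to 62887469, minus strand (Entrez 52463), and overlaps Gm51805.

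Tet3, the most abundant Tet gene per kb in all 4 groups, had 21258, 16473 and 16331 normalized counts in YFP- naïve and 9103, 6349 and 9012 in YFP- TEM libraries. The YFP+ values were 20679.8, 17666 and 16495 in naïve and 8539, 6769 and 9035 in TEM libraries. The naïve libraries were all above the TEM libraries, and the 2 fractions gave almost the same picture. The decrease was 2.22-fold in YFP- cells (log2 fold change -1.15, SE 0.16, adjusted p 8.21e-05, limma) and 2.26-fold in YFP+ cells (-1.18, SE 0.16, adjusted p 9.84e-05). Tet3 (Entrez 194388; chromosome 6, 83362373 to 83457208, minus strand) overlaps B230319C09Rik, which is also in the table, and Mir6374.

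Tet2 was the Tet gene that did not fall. It had 3430.0, 3080 and 2844 normalized counts in YFP- naïve libraries and 5590.5, 3455 and 4717 in YFP- TEM libraries. In YFP+ cells it had 2982, 3627 and 2825 in naïve and 3265, 3439 and 3084 in TEM libraries. The YFP- TEM libraries were above the YFP- naïve libraries, one of them narrowly, and the YFP+ TEM libraries fell inside the naïve range. The increase was called in YFP- cells (log2 fold change 0.53, SE 0.15, adjusted p 0.0114, limma) and the value was 0.06 in YFP+ cells (95% interval -0.27 to 0.39). Without YFP- TEM replicate 1, the highest library, the adjusted p was 0.0549 and the log2 fold change 0.38. YFP- TEM replicate 2, which had the lowest Tet2 of its group, also had the lowest sum of conventional dendritic cell genes (9495, against 13318 and 19658). For this list the order did not hold further up: the highest sum (19658) was in replicate 3 and the highest Tet2 in replicate 1 (sum 13318). The sums of plasmacytoid dendritic cell genes had the same order as Tet2, with 24785, 17206 and 24222 in YFP- TEM replicates 1, 2 and 3. The part of such RNA in the Tet2 level was not tested. Tet2 lies on chromosome 3 from 133463677 to 133545136, minus strand (Entrez 214133).

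These movements changed the make-up of the Tet family, computed as the share of its normalized counts per kb of exon. Tet3 made up 77.5 ± 2.31% of Tet transcripts in YFP- naïve cells and 62.3 ± 1.59% in YFP- TEM cells (n = 3 libraries each), while Tet2 went from 13.3 ± 0.597% to 34.5 ± 2.02% and Tet1 from 9.13 ± 1.75% to 3.21 ± 0.474%. In the YFP+ fraction the share of Tet2 went from 13.2 ± 1.80% to 27.4 ± 4.30%. The share of Dnmt1 among the 3 methyltransferases, by contrast, stayed between 74.3% and 76.6% on average in the 4 groups. Dnmt3b made up 5.35 ± 1.28% of them in YFP- naïve and 3.14 ± 0.421% in YFP- TEM cells, with ranges that did not overlap. Shares depend on the exon length used, and with the longest annotated transcript Tet3 dropped by 18.8 percentage points in YFP- cells in place of 15.2.

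**Figure D2:**
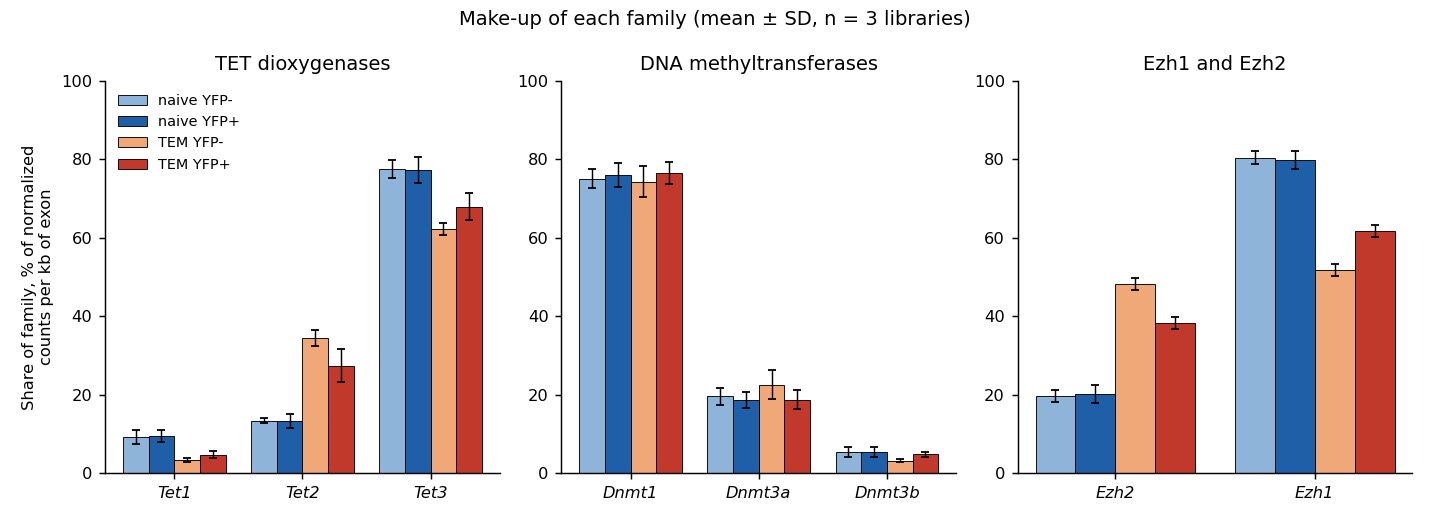
Share of each gene in its family, in percent of the family's normalized counts per kb of exon (y axis, from 0), for the 4 groups. Bars are means and whiskers SDs over 3 libraries. The share of Tet2 among Tet transcripts and of Ezh2 among Ezh1 and Ezh2 was higher in TEM than in naïve cells. The share of Dnmt1 was alike in the 4 groups, and that of Dnmt3b was lower in YFP- TEM (3.14%) than in YFP- naïve cells (5.35%).

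Ezh2 had 1012, 1178 and 950.4 normalized counts in YFP- naïve and 3820, 3945 and 3891 in YFP- TEM libraries. It had 1141, 1160.0 and 863 in YFP+ naïve and 2749, 2883 and 3026 in YFP+ TEM libraries. Libraries of one TEM group lay close together, and the 2 TEM groups overlapped neither each other nor the naïve groups. The increase was 3.72-fold in YFP- cells (log2 fold change 1.90, SE 0.12, adjusted p 8.05e-08, limma) and 2.76-fold in YFP+ cells (1.46, SE 0.12, adjusted p 8.89e-07). The gene (Entrez 14056; chromosome 6, 47530274 to 47595270.0, minus strand) overlaps F830010H11Rik.

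The alternative catalytic subunit Ezh1 and the core subunits Eed and Suz12 of PRC2 were not called, while some other PRC2 genes were. Ezh1, which can take the place of Ezh2, had 4795 ± 67.6 normalized counts in YFP- naïve and 4647 ± 207 in YFP- TEM cells (n = 3; adjusted p 0.596, limma). The core subunits Eed (2613 ± 74.3 and 2545 ± 86.4) and Suz12 (8823 ± 1775 and 7516 ± 357) were not called in any comparison. The ratio of Ezh2 to Ezh1 reads was 0.218 ± 0.0216 in naïve YFP- and 0.226 ± 0.0319 in naïve YFP+ cells. It reached 0.838 ± 0.0511 in TEM cells without YFP and 0.557 ± 0.0367 in those with it. Per kb of exon, Ezh2 made up 19.5 ± 1.55% of the pair in YFP- naïve and 48.2 ± 1.51% in YFP- TEM cells. Among the 12 PRC2 genes other than Ezh2, 3 were higher (Phf19, Aebp2 and Rbbp7) and 3 lower (Epop, Lcor and Phf1) in YFP- TEM cells. In YFP+ TEM cells 2 were higher (Phf19 and Aebp2) and 2 lower (Epop and Lcor). Of all tested genes 49.8% were called in YFP- and 41.4% in YFP+ cells, so these counts do not set the 12 genes apart. The largest increase among the 12 was in Phf19, a Polycomb-like accessory subunit that binds methylated H3 lysine 36, from 118 ± 5.87 to 671 ± 122 in YFP- cells. Epop, an accessory subunit that links PRC2 to elongin, was lower, with 1468 ± 263 and 689 ± 8.42. The median log2 fold change of the 12 was -0.04 in YFP- cells, beside 0.05 for all tested genes.

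Genes that act against PRC2 or downstream of it gave 2 higher and 7 lower among 19 in both fractions. Their medians were -0.21 in YFP- and -0.13 in YFP+ cells. Of all tested genes 49.8% were called in YFP- and 41.4% in YFP+ cells. Kdm6b, a demethylase that removes the PRC2 mark, was lower in TEM cells of the YFP- fraction (14599 ± 2609.7 in naïve, 9359.8 ± 394 in TEM; log2 fold change -0.63, SE 0.14, adjusted p 0.00283, limma). Kdm6a, the X-linked demethylase of the same family, was not called in either fraction. Pcgf2, which defines one form of the Polycomb complex PRC1, rose from 61.8 ± 8.89 to 735 ± 92.0 in YFP- cells, and Cbx6, a reader of the PRC2 mark, from 3582 ± 183 to 6903 ± 593. Cbx2, another reader, was lower, at 601 ± 140 in naïve and 360 ± 80.7 in TEM cells (YFP- fraction, adjusted p 0.0126).

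Partners of the DNA methylation machinery gave 5 higher (Hells, Cdca7, Uhrf2, Zbtb38 and Ahcy) and 3 lower (Usp7, Shmt2 and Zbtb4) of 17 tested in YFP- cells. In YFP+ cells 4 were higher and 2 lower, the same genes without Ahcy and Zbtb4. The medians were -0.02 and 0.05. Of all tested genes 49.8% were called in YFP- and 41.4% in YFP+ cells. The strongest increases in the list were in Hells and Cdca7, which form a nucleosome remodeller needed for DNA methylation in heterochromatin. Hells had 251 ± 48.5 normalized counts in YFP- naïve and 1215 ± 265 in YFP- TEM cells (log2 fold change 2.27, SE 0.22, adjusted p 3.05e-06, limma). Cdca7 had 329 ± 35.4 and 1361 ± 48.7 (2.05, SE 0.12, adjusted p 6.99e-08). Uhrf2, the paralogue of Uhrf1, rose far less, from 3182 ± 189 to 4089 ± 235 (0.36, SE 0.07, adjusted p 0.00143). Usp7, a deubiquitinase that binds Uhrf1 and Dnmt1, was lower in TEM cells of both fractions (YFP-: 16436 ± 1442 and 11001 ± 1476).

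Of the partners of DNA demethylation, 3 were higher (Gadd45b, Cxxc5 and Idh3a) and 4 lower among 17 tested in each fraction. The lower genes were Idh2, Smug1 and D2hgdh in both, with Gadd45a in YFP- and Apex1 in YFP+ cells. Gadd45b, a stress-induced adaptor linked to active demethylation, rose from 376 ± 113 to 1512 ± 381 in YFP- cells, and Cxxc5, a CXXC-domain relative of the Tet DNA-binding modules, from 249 ± 45.6 to 618 ± 126. Idh2, which makes the Tet co-substrate 2-oxoglutarate in mitochondria, fell from 2698 ± 95.6 to 1343 ± 92.3. Tdg, the glycosylase that excises oxidised methylcytosine, had 2274 ± 251 and 2297 ± 169 and was not called in any comparison. The medians of the list were 0.0041 and -0.13. Of all tested genes 49.8% were called in YFP- and 41.4% in YFP+ cells.

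Proliferation genes rose far more uniformly. Of 28, 25 were higher in YFP- TEM and 24 in YFP+ TEM cells and none was lower in limma (1 was lower in edgeR in YFP- cells), with median log2 fold changes of 3.59 and 2.61. Of all tested genes 29.9% were called higher in YFP- and 24.7% in YFP+ TEM cells in limma. Mki67, the proliferation antigen Ki-67, had 198 ± 36.2 normalized counts in YFP- naïve and 13469.9 ± 3304 in YFP- TEM cells, and Top2a, the topoisomerase of dividing cells, 386 ± 70.6 and 9779 ± 1875. Pcna, the replication clamp that binds Dnmt1 at the fork, rose less, from 4429 ± 220 to 6273 ± 701 (log2 fold change 0.50, SE 0.10, adjusted p 0.00115, limma). Of all tested genes averaging 50 or more normalized counts, the 2 whose profile over the 12 libraries was closest to that of Uhrf1 were Ncapg2, a condensin II subunit (root mean square difference 0.21 log2 units after centring), and Tyms, thymidylate synthase (0.23). For Ezh2 they were Slc4a7 (0.12) and Dnase2a (0.16), for Tet1 Rapgef4 (0.18) and Afp (0.20), and for Tet3 Smc6 (0.11) and Zbtb8a (0.12). The other 4 genes differed too little between groups (less than 1 log2 unit) for this comparison.

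Against the sum of these 28 genes the members stood differently. Uhrf1 amounted to 0.748 ± 0.118% of the summed proliferation list in YFP- naïve and 3.81 ± 0.253% in YFP- TEM cells, so it rose more than the sum did. The sum gives most weight to genes with high counts, some of them already high in naïve cells, such as Mcm4 (5359 and 6124). Gene by gene, the log2 fold change of Uhrf1 was 3.89 in YFP- cells, beside a median of 3.59 for the list. Ezh2 amounted to 3.39 ± 0.522% and 4.33 ± 0.464%. Dnmt1 went the other way, with 29.3 ± 3.12% in YFP- naïve and 10.1 ± 0.632% in YFP- TEM cells. What part of each change comes with the share of dividing cells was not tested.

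**Figure D3:**
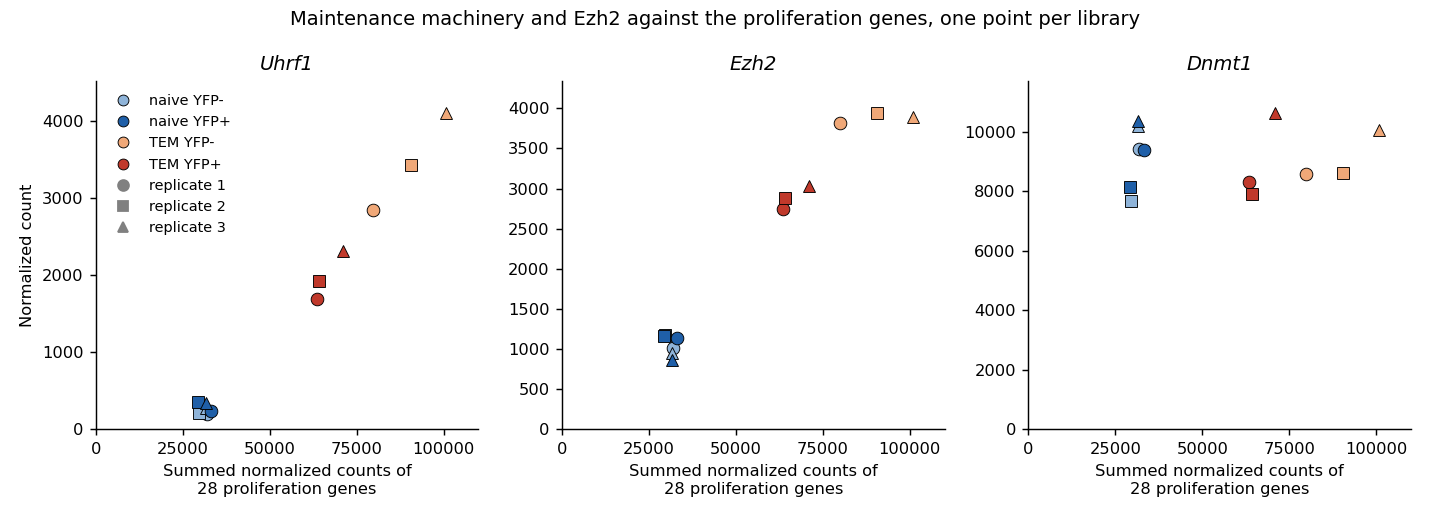
Normalized count of Uhrf1, Ezh2 and Dnmt1 (y axes, linear from 0) against the summed normalized count of 28 proliferation genes (x axis), one point per library, coloured by group and shaped by replicate number. Sums were 29313 to 33169 in naïve, 63460 to 70984 in YFP+ TEM and 79782 to 100811 in YFP- TEM libraries; Uhrf1 and Ezh2 were ordered by group in the same way and Dnmt1 was not.

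Promoter sequences are shown for the genes that hold an E2F-type motif, because E2F1, an activator of replication genes, itself rose from 157 ± 17.8 to 742 ± 91.1 normalized counts between YFP- naïve and YFP- TEM cells. The motifs TTTCCCGC, TTTCGCGC, TTTGGCGC and TTTGCCGC were searched on both strands in the RefSeq promoters of GRCm38.p6, which cover 250 bases before and 50 bases after each start. All 8 genes had at least one entry, and 3 of them (Dnmt1, Uhrf1 and Ezh2) held a match, as did 7 of the 23 proliferation genes with an entry and 2.60% of all 27025 genes. Each motif contains a CG pair, and the promoters with these matches held 31 to 33 CG pairs, against a median of 7 over all promoters. The 2.60% is therefore not a background of like CG content, and the share among promoters as rich in CG was not computed. Each window of 30 bases runs 5′ to 3′ on the strand of the gene, with the match in capitals.
Uhrf1 (chr17:56304117-56304146, plus strand): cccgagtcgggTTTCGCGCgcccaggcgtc
Ezh2 (chr6:47595009-47595038, minus strand): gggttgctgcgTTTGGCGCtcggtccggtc
Dnmt1, near the start (chr9:20952574-20952603, minus strand): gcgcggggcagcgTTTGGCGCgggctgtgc
Dnmt1, upstream (chr9:20952824-20952853, minus strand): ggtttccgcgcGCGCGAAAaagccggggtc
The Ezh2 match begins 3 bases after the annotated start, the Uhrf1 match 185 bases before one of 2 starts, and the Dnmt1 matches lie 33 bases after and 219 bases before one of 3 starts. Of the 3 genes with a match, Uhrf1 and Ezh2 were higher in TEM cells and Dnmt1 was not called. A match is a string of letters and was not tested as a binding site.

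YFP+ and YFP- TEM cells were compared next, to see whether a history of Csf2 expression goes with a different methylation machinery among memory cells. Uhrf1 and Ezh2 were lower in YFP+ TEM cells, by less than they differed between TEM and naïve cells, and no member was higher at the threshold. These 2 of the 8 genes were called, beside 6.97% of all tested genes (4.67% lower), and the libraries of the 2 groups did not overlap for 4 of the 8 (Uhrf1, Ezh2, Dnmt3b and Tet2), beside 25% of all tested genes. Uhrf1 was 1.74-fold lower in YFP+ TEM cells (3462 ± 630 in YFP-, 1979 ± 315 in YFP+; log2 fold change -0.80, SE 0.19, adjusted p 0.0218, limma), and lower in 3 of 3 same-numbered pairs, by -0.75, -0.83 and -0.83. Leaving out one library at a time gave adjusted p from 0.0246 to 0.123, and the value was -0.67 without YFP- TEM replicate 3. With the replicate number as a block, the adjusted p was 0.000524.

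Ezh2 was 1.35-fold lower in YFP+ TEM cells (3885 ± 62.7 in YFP-, 2886 ± 138 in YFP+; log2 fold change -0.43, SE 0.12, adjusted p 0.0435, limma), again in 3 of 3 pairs. This call stood near the threshold. It was lost in all 6 fits that left out one TEM library (adjusted p 0.0839 to 0.151) and in edgeR (0.0542), although the log2 fold change kept between -0.46 and -0.40. With the replicate number as a block the adjusted p was 0.0173.

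Dnmt3b and Tet2 differed between the TEM groups without passing the test. Dnmt3b was higher in YFP+ TEM cells (266 ± 39.1 in YFP-, 377 ± 24.9 in YFP+; log2 fold change 0.51, 95% interval 0.16 to 0.86, adjusted p 0.0837, limma), and it passed in DESeq2 (0.0334) and after quantile normalization (0.00343). Tet2 had 4588 ± 1074 in YFP- and 3263 ± 177 in YFP+ TEM cells (-0.47, -0.80 to -0.13, adjusted p 0.104), with the lowest YFP- library at 3455 and the highest YFP+ library at 3439. In DESeq2 its adjusted p was 0.0370. The value was -0.66 without YFP- TEM replicate 2 (adjusted p 0.00921, limma) and -0.31 without YFP- TEM replicate 1 (0.364). For Tet1 the log2 fold change was 0.40 (adjusted p 0.298, limma), with all 3 pairs positive. It became 0.62 without YFP+ TEM replicate 2 (adjusted p 0.0405) and 0.20 without YFP+ TEM replicate 3 (0.757). Dnmt3a had -0.34 (95% interval -0.73 to 0.06), with all 3 pairs negative, and leaving out one library at a time moved it between -0.56 and -0.20 (adjusted p 0.0662 to 0.765). Dnmt1 (-0.03, -0.33 to 0.27) and Tet3 (0.0013, -0.35 to 0.36) had the values nearest 0.

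Cell cycle genes were lower in YFP+ TEM cells as well. Of the 28 proliferation genes 6 were called lower and none higher in limma, 7 lower in edgeR and 17 in DESeq2, with a median log2 fold change of -0.63 beside -0.01 for all tested genes. Of all 15587 tested genes 728 were called lower in limma, 690 in edgeR and 1019 in DESeq2. Top2a had 9779 ± 1875 in YFP- and 5599 ± 752 in YFP+ TEM cells (-0.80, SE 0.17, adjusted p 0.0112, limma), and E2f1 742 ± 91.1 and 411 ± 41.1 (-0.85, SE 0.17, adjusted p 0.0075). Mki67 had 13469.9 ± 3304 and 8417 ± 1680.0, with no overlap and an adjusted p of 0.102. Measured against the proliferation sum, Ezh2 was alike in the 2 groups, at 4.33 ± 0.464% in YFP- and 4.36 ± 0.117% in YFP+ TEM cells, whereas Uhrf1 had 3.81 ± 0.253% and 2.98 ± 0.299%, with ranges that did not overlap. This comparison was chosen after the values had been seen and has no test. The sum gives most weight to genes with high counts. Gene by gene, Uhrf1 changed by -0.80 and Ezh2 by -0.43 on the log2 scale. The median of the list was -0.63, with Top2a at -0.80 and E2f1 at -0.85.

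Of the partner lists, the partners of methylation had 2 genes higher and 2 lower among 17 in YFP+ TEM cells, beside 6.97% of all tested genes called, and the PRC1 list had 1 higher among 19. None of the 12 PRC2 genes was called in limma, edgeR or DESeq2, and 2 had an unadjusted p of 0.05 or less. None of the 17 partners of demethylation was called in limma or edgeR and 1 was in DESeq2, while 2 passed without adjustment in limma. Among the partners of methylation, Cdca7 was lower in YFP+ TEM cells (1361 ± 48.7 and 897 ± 122; log2 fold change -0.61, SE 0.12, adjusted p 0.00836, limma), as was Mbd4, a glycosylase that repairs deaminated methylcytosine (615 ± 72.8 and 440.0 ± 46.2; adjusted p 0.0474). Zbtb38 (3037 ± 227 and 4204 ± 284; adjusted p 0.00421) and Zbtb4 (5267 ± 276 and 6895 ± 267; adjusted p 0.0239), both zinc finger proteins that bind methylated DNA, were higher. In the PRC1 list Bmi1, a core subunit, was higher in YFP+ TEM cells (2485 ± 197 and 3231 ± 238; adjusted p 0.0177).

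Markers of other cells moved with this comparison, in which 6.97% of all tested genes were called. Of 8 conventional dendritic cell genes 7 were lower in YFP+ TEM cells, of 12 plasmacytoid dendritic cell genes 9, and of 9 regulatory T cell genes 2, Foxp3 and Ikzf4. Foxp3, the regulatory T cell factor, had 16093 ± 4320.2 in YFP- and 8792 ± 2281 in YFP+ TEM cells (adjusted p 0.045, limma). Of 8 NK and NKT cell genes 7 were higher in YFP+ TEM cells, with sums of 1090.0 to 1262 and 4344 to 7158. Of 2 CD8 T cell genes 2 were lower, with sums of 685 to 1490 in YFP- and 187 to 373 in YFP+ TEM cells. Of 8 macrophage and neutrophil genes tested 2 were lower, and of 10 B cell genes 2 were higher and 1 lower. Within the YFP- TEM group the sum of conventional dendritic cell genes spread from 9495 to 19658. In the same libraries Uhrf1 ranged from 2851 to 4109, Ezh2 from 3820 to 3945, Dnmt3b from 226 to 304 and Tet2 from 3455 to 5590.5. The part of these other cell types in the differences of Uhrf1, Ezh2, Dnmt3b and Tet2 was not tested.

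**Figure D4:**
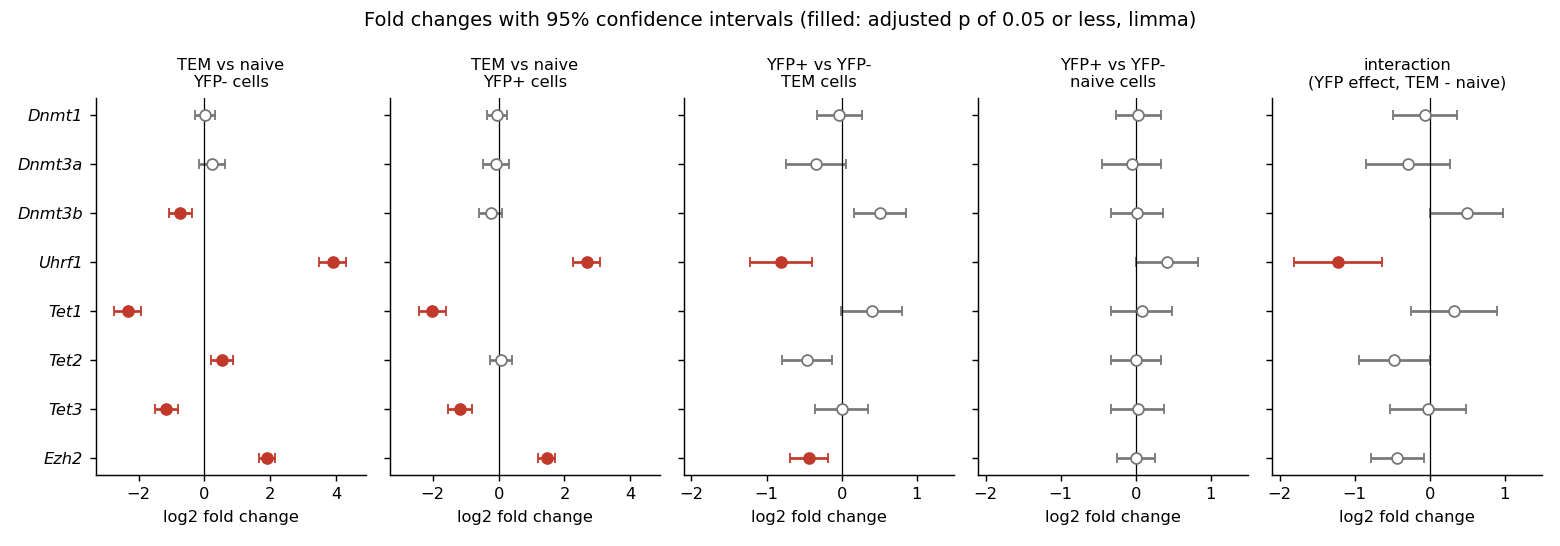
Log2 fold change of each gene (x axes) in the 4 comparisons and in the difference of the YFP effect between TEM and naïve cells, with 95% confidence intervals from limma; filled red points have an adjusted p of 0.05 or less. The first 2 panels have a wider axis than the other 3. The naïve panel holds no called gene, and Uhrf1 is the one called gene in the last panel, at -1.22.

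Naïve cells of the 2 fractions gave similar values for these genes. None of the 8 was called in limma, edgeR or DESeq2, beside 0.00642% of all tested genes in limma, and the groups overlapped for all 8, beside 5.38% of all tested genes that did not overlap. At an unadjusted p of 0.05 there was 1 gene, Uhrf1 (232 ± 39.0 in YFP-, 312 ± 64.2 in YFP+), as for 3.32% of all tested genes. Its log2 fold change was 0.42 (95% interval 0.01 to 0.83) and all 3 pairs were positive, at 0.23, 0.72 and 0.31. The largest was the pair of replicate 2. YFP+ naïve replicate 2 had the highest naïve sums of macrophage and neutrophil and of erythroid genes, and the highest naïve Mki67 (453). The part of such RNA in the Uhrf1 value was not tested. Mki67 had 198 ± 36.2 in YFP- and 341 ± 96.9 in YFP+ naïve cells (adjusted p 1). For the other 7 genes the log2 fold change lay between -0.05 (Dnmt3a) and 0.08 (Tet1), and their intervals reached at most 0.49 in either direction.

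The last comparison asked if YFP status had the same effect in TEM as in naïve cells. It did not for Uhrf1, which was lower with YFP in TEM cells and had a positive value in naïve cells, a difference of -1.22 log2 units (SE 0.27, adjusted p 0.0261, limma). This was 1 of the 8 genes, beside 3.55% of all tested genes (2.73% lower). The same difference was -0.43 for Ezh2 (95% interval -0.79 to -0.08, adjusted p 0.254), -0.47 for Tet2 (adjusted p 0.422) and 0.49 for Dnmt3b (adjusted p 0.427). Among the proliferation genes, Mki67 (-1.43, SE 0.31, adjusted p 0.0238) and Top2a (-1.29, SE 0.24, adjusted p 0.0109) were called, 2 of 28. Leaving out one library at a time gave adjusted p for Uhrf1 from 0.0102 to 0.0834, so that the call was lost without any of 8 of the 12 libraries, while the value stayed between -1.40 and -1.09.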

How the data were processed

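According to the paper, total RNA was prepared with a stranded kit and sequenced on a HiSeq2500. The authors mapped reads to mm10 with DRAGEN, counted them with Rsubread and divided them by DESeq2 size factors, so the deposited signal is a normalized count per gene (versions, annotation and strand setting are not given in the sources used here). Multiplication by the size factor gave whole reads for 100% of values (tolerance 1e-06). The column headers name one flow cell and lane.

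Groups followed the sample titles. Symbols and coordinates came from RefSeq (GRCm38.p6) and exon lengths from GENCODE M21. A gene needed 5 or more normalized counts in 3 or more libraries (15587 of 17523 did), and log2(value + 1) was fitted in limma 3.58.1 (R 4.3.3) with a variance trend, 4 group means and 8 residual degrees of freedom. Fold changes are on this scale, which understates changes of low genes. P values were Benjamini-Hochberg adjusted. An exact two-sided permutation test of 3 against 3 cannot give less than 0.1. P values measure the spread between libraries, whose cells came from 3 mice by the design text. The fit was tested on simulated data.

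Replicate numbers were taken to pair libraries where all 3 same-number correlations of deviations from group means exceeded 0.1: YFP- TEM with YFP- naïve (lowest 0.137), and YFP+ with YFP- in TEM (0.180) and naïve (0.306) cells. YFP+ TEM with YFP+ naïve did not (-0.0199). The 3 pairings that passed link all 4 groups, so the failed one does not show that those numbers are unrelated. In all 4 groups Ddx3y was expressed in replicate 3 (at least 3869 normalized counts) and not in replicates 1 and 2 (at most 1.06). The main fit has no pairing term, so differences between replicate numbers stay in its residual spread. The block was fitted as an alternative.

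Named genes were the 8 members, 14 fixed genes, up to 2 genes per direction with the largest called change in each list and comparison (mean of at least 50), and the 2 closest profiles per member whose group means span 1 log2 unit or more. Cd44 (a sort marker), Ahcy, Rbbp7, Phf1, Idh3a, Smug1, D2hgdh and Ikzf4 were named after their values were seen. Members and lists were chosen with earlier results of these data known. Alternatives were an added 0.1 or 5, no filter or a mean of 10, quantile and TMM scaling, 6 libraries only, the block, no trend, edgeR 4.0.16, DESeq2 1.42.0, an absolute log2 fold change of 1 and each library left out.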

Additional observations from a re-analysis of the deposited data

Results flagged for a closer look

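The one result flagged is the difference of the YFP effect on Uhrf1 between TEM and naïve cells, -1.22 log2 units (SE 0.27, adjusted p 0.0261, limma). It was flagged because the same contrast, YFP+ against YFP-, went in different directions in the 2 cell types and the test of that difference passed. The log2 fold change was -0.80 in TEM cells, where 3 of 3 same-numbered pairs were negative, and 0.42 in naïve cells, where 3 of 3 pairs were positive but the adjusted p was 1. Mki67 and Top2a had differences of -1.43 and -1.29. The largest of the naïve pairs was that of replicate 2, whose YFP+ naïve library had the highest naïve sums of macrophage and neutrophil and of erythroid genes. The part of dividing cells, of RNA of other cells in that library, or of the other cell types whose markers differ between the TEM groups, was not tested.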

How the results depend on the processing

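The 40 fold changes (8 genes, 5 comparisons) were recomputed under 720 alternatives in all, of which 637 kept direction and side of the threshold, 25 lost a call, 8 gained one and 50 turned direction, none of these a called gene. No called fold change of Uhrf1, Ezh2, Tet1, Tet3 or Dnmt3b between TEM and naïve cells was lost in these, while a required log2 fold change of 1 would leave 4 of 6 genes in YFP- and 4 of 4 in YFP+ cells. Of the 8 genes, those called between TEM groups numbered 2, and 1 with 0.1 added, with TMM factors or in edgeR, 0 without a variance trend or with a log2 fold change of 1 required, 4 in DESeq2 and 0 to 1 with a library left out. Over all 15587 tested genes 359 were higher and 728 lower in the main fit, and 569 and 1019 in DESeq2. The counts were 290 and 546 with 0.1 added, 444 and 698 with TMM factors, and 436 and 690 in edgeR. Without a variance trend they were 306 and 655, and with a library left out 202 to 420 and 414 to 666. The interaction count of 1 among the 8 genes became 0 without a trend and 0 to 1 with a library left out. Over all tested genes the interaction gave 129 higher and 425 lower in the main fit, and 108 and 333 without a trend. With a library left out it gave 68 to 174 higher and 205 to 421 lower. The cause was not tested. Quantile normalization turned the split of all genes in TEM against naïve cells from 4665 higher and 3104 lower to 3585 and 5925 in YFP- cells, and from 3849 and 2604 to 3063 and 4626 in YFP+ cells.

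With the replicate number as a block, no call of the 8 genes changed (Uhrf1 between TEM groups, -0.80), while all genes called between TEM groups went from 359 higher and 728 lower to 814 and 1055. With the longest transcript, the share of Tet3 changed by -18.8 percentage points in YFP- cells, that of Ezh2 by 31.1 and that of Ezh1 by -31.1.

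Direction turned for values near 0. For Dnmt1 in TEM against naïve cells these were -0.042 (TMM), -0.046 (edgeR) and -0.0011 (DESeq2) in the YFP- and 0.0087 (quantile) in the YFP+ fraction, and between TEM groups 0.0023 (TMM) and 0.011 (edgeR). For Tet3 they were -0.057 (quantile) and -0.0071 (DESeq2) between TEM groups and 0.013 (TMM) and 0.0079 (edgeR) in the interaction, and for Ezh2 between naïve groups -9.6e-05 (TMM). With a library left out, Dnmt1 ranged from -0.11 to 0.092 and from -0.19 to 0.024 in TEM against naïve cells (YFP-, YFP+), from -0.16 to 0.053 between TEM groups, from -0.083 to 0.13 between naïve groups and from -0.19 to 0.053 in the interaction. Dnmt3a ranged from -0.15 to 0.071 and Tet2 from -0.013 to 0.17 in TEM against naïve YFP+ cells, and Tet3 from -0.17 to 0.13 between TEM groups and from -0.19 to 0.10 in the interaction. Between naïve groups the ranges were -0.16 to 0.077 (Dnmt3a), -0.099 to 0.12 (Dnmt3b), -0.0063 to 0.17 (Tet1), -0.099 to 0.081 (Tet2), -0.067 to 0.15 (Tet3) and -0.071 to 0.14 (Ezh2).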

Other observations

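Dnmt1 was not called in any comparison. The order of the replicates within each group was tallied for every member. Dnmt1 and Uhrf1 were the only members in which the same replicate was highest, or lowest, in all 4 groups. The share of all tested genes with such an order was not computed, so the order is not shown to be particular to these genes. Replicate 3 had the highest Dnmt1 of its group in all 4 groups (10066 to 10638 normalized counts), and replicate 2 the lowest in 3 of 4. Uhrf1 was lowest in replicate 1 in all 4 groups. Replicate 3 is also the one in which the Y-linked gene Ddx3y was expressed, with at least 3869 normalized counts against at most 1.06 in replicates 1 and 2, so that sex and animal cannot be told apart here.

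The promoter windows of the 8 genes differed in their own content of CG pairs. The single Tet2 window of 300 bases held 57 CG pairs and the Ezh2 window 31, against a median of 7 over all 32851 promoters. The Tet1 window held 17. For Dnmt1 the 3 annotated starts held 33, 12 and 2. No methylation was measured in these samples.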
